A study of Homo sapiens with 6 samples.

Results

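Ribosomal proteins build the cell's 2 kinds of ribosome, and 9 of the 1998 genes that the authors' deposited table lists as changed between control and H19 siRNA cells encode such proteins by name. They were chosen as the listed genes whose symbol is RPL or RPS with a number (cytosolic ribosome, 3 genes: RPL12, RPL13A and RPS12) or MRPL or MRPS with a number (mitochondrial ribosome, 6 genes: MRPL11, MRPL18, MRPL24, MRPL46, MRPS5 and MRPS30). Since a gene had to be called in this contrast to be listed, the direction and size of its change come from the values that chose it and are given as a description, with no test of their own. HepG2 is a human hepatoma cell line that keeps many hepatocyte functions. One group received a control siRNA (siCon, 3 libraries), the other an siRNA against the long noncoding RNA H19 (siH19, 3 libraries), and both were harvested after 48 h. Untransfected cells were not analysed here. Nor was the level of H19, so siH19 is the submitters' label and the knockdown itself went unchecked.

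Each group has a single value per gene in the authors' deposited table, so no value for a library is shown, and whether the libraries came from separate cultures is not stated in the labels. The authors' standard errors (SEs) and adjusted p-values may therefore measure technical spread only. Library totals were not given, so depth is unknown. Of 10 hepatocyte markers 9 were listed, with mean normalized counts in the authors' deposited table from 99.1 for TAT to 240657 for APOB, and all 9 were lower in siH19. Among 29 markers of stellate, endothelial, blood and bile duct cells 5 were listed. For scale, 9.46% of protein-coding genes in GENCODE release 29 were listed, a share that includes genes not expressed or not tested. Of all listed genes 55.3% were lower. The authors' deposited table gives ACTA2 a log2 fold change of -0.83, LYVE1 -0.98, CD68 -1.21, LYZ -0.64 and SPP1 0.53. Mean normalized counts there were 673 for ACTA2, 78.6 for LYVE1, 810 for CD68, 20858 for LYZ and 7487 for SPP1. Those of ACTA2, CD68, LYZ and SPP1 lie within the range of the hepatocyte markers, and that of LYVE1 lies below it. The levels of the markers not listed were not analysed here. The part of the markers of other cell types in the ribosomal protein values was not tested.

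A ribosome has a small subunit, which reads the mRNA, and a large subunit, which joins amino acids. Cytosolic ribosomes translate nearly all cellular mRNAs, and their protein mRNAs typically begin with a C and a run of pyrimidines, the 5′ terminal oligopyrimidine (TOP) sequence, through which mTOR signalling controls their translation. Mitochondrial ribosomes are made from nuclear-coded proteins that are imported, and they translate only the few respiratory chain subunits that mitochondrial DNA encodes. In hepatocytes cytosolic ribosomes support a large output of secreted plasma proteins, and mitochondria carry fatty acid oxidation, ketogenesis and part of the urea cycle.

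The start sites of the genes are shown first because they differ between the 2 kinds of ribosome. All 10 genes described here, the 9 and DAP3 (below), matched RefSeq's promoter table (GRCh38.p14, a different build from the hg19 of the submitters' notes), which gives 250 bases before and 50 bases from each start site. Each line has 10 bases before the start site and 20 from it, 5′ to 3′ on the gene's strand. In the cytosolic genes capitals mark the unbroken run of C and T from the first transcribed base, and in the others they mark that base alone.
RPS12, chr6:132814559-132814588, plus strand: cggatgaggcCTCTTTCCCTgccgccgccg
RPL12, chr9:127451387-127451416, minus strand: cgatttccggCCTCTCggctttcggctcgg
RPL13A, chr19:49487598-49487627, plus strand: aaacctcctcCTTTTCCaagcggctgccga
MRPL18, chr6:159789802-159789831, plus strand: atgttggaccGctgggaagaggttgaacct
MRPL24, chr1:156741069-156741098, minus strand: ctgagggcccAtgtgctgaaaatccgaagt
MRPL11, chr11:66438829-66438858, minus strand: ctagcctaacGtgaggacccttgacctctg
MRPL18 is shown at the first of its 3 start sites in the table.

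All 3 cytosolic genes started with a C followed by at least 4 bases that are each C or T, and none of the 6 mitochondrial genes did at any start site in the table. The same start was found in 47 of 63 cytosolic (74.6%) and 6 of 72 mitochondrial (8.33%) ribosomal protein genes that had a promoter entry, against 6.24% of protein-coding genes and 4.07% of all 35116 windows. The TOP start is thus shared by the listed cytosolic genes with most of their class, listed or not. A match describes these letters at the annotated start and is not evidence of control.

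A second sequence was common to 3 of the mitochondrial genes and to RPL13A. AAGATGG, the core of the element bound by the transcription factor YY1, was searched on both strands with other motifs, and in these 4 genes it lay on the gene's strand within 50 bases of the start site. Capitals mark it in the next lines.
MRPL46, chr15:88467361-88467390, minus strand: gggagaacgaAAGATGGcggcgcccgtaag
MRPS30, chr5:44808950-44808979, plus strand: atcgcgggcaAAGATGGcggcggccaggtg
MRPL11, chr11:66438805-66438834, minus strand: cctctggcccAAGATGGtggcgcccagagc
RPL13A, chr19:49487617-49487646, plus strand: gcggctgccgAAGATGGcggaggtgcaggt
The match began 9 bases from the start in MRPL46, 14 in MRPS30, 20 in RPL13A and 25 in MRPL11, counting the first transcribed base as 1. Its ATG is the annotated start codon in GENCODE release 29 in MRPL46, MRPS30 and RPL13A, and not in MRPL11. Over the whole 300-base window AAGATGG was present in 3 of the 6 mitochondrial and 1 of the 3 cytosolic genes. The shares were 36.1% of the 72 mitochondrial and 14.3% of the 63 cytosolic ribosomal protein genes with an entry, 7.90% of protein-coding genes and 5.84% of all windows. CCGGAAG, the core bound by ETS factors such as GABP, was found in MRPL18 and RPL13A. In MRPL18 it lay at bases -26 to -20 from the last of its 3 start sites, and not in the window of the start site shown above. In RPL13A it lay at bases -177 to -171. The shares of CCGGAAG were 41.7% of mitochondrial and 34.9% of cytosolic ribosomal protein genes and 16.5% of protein-coding genes with an entry, and 10.3% of all windows. CGCATGC, the core of the NRF1 site, was found in RPS12. Its shares were 9.72% of mitochondrial and 7.94% of cytosolic ribosomal protein genes and 6.07% of protein-coding genes, and 3.91% of all windows.

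All 9 genes were lower in siH19. Of all 1998 listed genes 55.3% were lower, and since the same contrast chose the members, nothing is read from that difference. The falls were small for the cytosolic genes, 1.16-fold to 1.18-fold, and ranged from 1.23-fold to 1.57-fold for the mitochondrial genes, as computed from the log2 fold changes of the authors' deposited table. Every listed member of both kinds changed by less than 2-fold. The 9 genes lie on 8 chromosomes, and none overlaps another listed gene in GENCODE release 29.

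**Figure D1:**
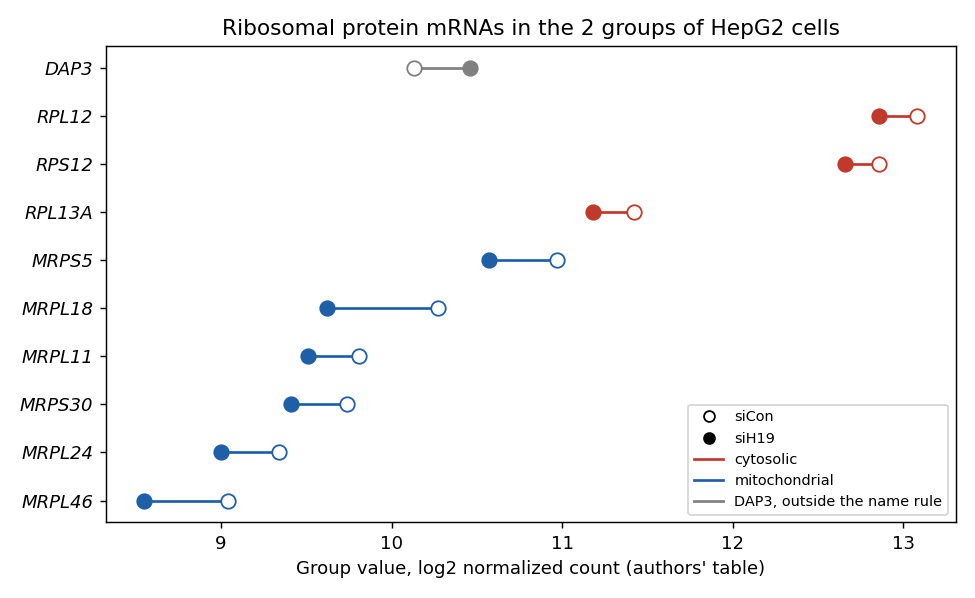
Log2 normalized count of each ribosomal protein gene in siCon (open points) and siH19 (filled points), from the authors' deposited table, 1 combined value per group of 3 libraries, with cytosolic genes in red, mitochondrial genes in blue and DAP3 in grey. The filled point lies left of the open point in all 9 genes and right of it in DAP3.

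The 3 cytosolic genes were the most abundant and moved least. RPL12 is a protein of the stalk base of the large subunit, where translation factors dock, and had a log2 count of 13.08 in siCon and 12.86 in siH19 in the authors' deposited table. Its log2 fold change there was -0.22 ± 0.08 (SE), with an authors' adjusted p of 0.0361. RPL13A is a large subunit protein that can also leave the ribosome and repress translation of inflammatory mRNAs. It stood at 11.42 in siCon and 11.18 in siH19 on the log2 count scale, a log2 fold change of -0.24 ± 0.09 (adjusted p = 0.0436) in the authors' deposited table. RPS12, a small subunit protein, went from 12.86 to 12.66, or -0.21 ± 0.08 (adjusted p = 0.0402) in the authors' deposited table.

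These calls lie near the edge of the table. The largest adjusted p listed was 0.0498, and only 185 of the 1998 genes (9.26%) had one at or above that of RPL12, the lowest of the 3. The mitochondrial gene MRPL11 was nearer that edge than RPL12, with 151 genes (7.56%) at or above its adjusted p. In size, RPS12 exceeded only 9 listed genes, RPL12 only 20 and RPL13A only 55. Genes just outside the authors' threshold were not analysed here.

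Among mitochondrial large subunit genes the fall was largest for MRPL18, whose protein belongs to the family that contacts the 5S rRNA in other ribosomes. Its log2 count was 10.27 in siCon and 9.62 in siH19 in the authors' deposited table. The log2 fold change of -0.65 ± 0.09 was larger in size than that of 79.0% of listed genes, and the authors' deposited table writes its adjusted p as 0, meaning below the precision of the table. MRPL46 went from 9.04 to 8.55, a log2 fold change of -0.48 ± 0.12 (adjusted p = 6.49e-04) in the authors' deposited table. Another protein-coding model on the same strand, AC013489.1, covers MRPL46 in GENCODE release 29, so reads of the 2 may not be separable.

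MRPL24 and MRPL11 were lower by less. For MRPL24 the authors' deposited table gave 9.34 in siCon and 9.0 in siH19 on the log2 count scale, a log2 fold change of -0.33 ± 0.11 (adjusted p = 0.0221). MRPL11 went from 9.81 to 9.51, or -0.30 ± 0.11 (adjusted p = 0.0388), in the authors' deposited table. MRPL11 and RPL12 are the mitochondrial and cytosolic members of 1 protein family, named uL11m and uL11 in RefSeq. The mRNA of this stalk base protein was thus lower for both ribosomes, and protein levels were not analysed here. The 2 log2 fold changes, -0.30 and -0.22, differ by 0.08, which is no more than the SE of either in the authors' deposited table.

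MRPS5 and MRPS30 carry small subunit names. MRPS5, which belongs to a family at the mRNA entry side of the small subunit, went from 10.97 to 10.57, a log2 fold change of -0.39 ± 0.10 (adjusted p = 7.96e-04) in the authors' deposited table. It overlaps the zinc finger gene ZNF514 on the same strand. MRPS30 went from 9.74 to 9.41, or -0.32 ± 0.10 (adjusted p = 0.0111), in the authors' deposited table. RefSeq also names MRPS30 mL65, a large subunit name, so MRPS5 was then the only listed member of the mitochondrial small subunit that the name rule found.

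DAP3, a GTP-binding protein of the mitochondrial small subunit also named MRPS29, does not match the name rule and moved the other way. It had a log2 count of 10.13 in siCon and 10.46 in siH19 in the authors' deposited table. The log2 fold change was 0.33 ± 0.09, a rise with an adjusted p of 0.00223, in the authors' deposited table. DAP3 overlaps YY1AP1, which was not listed, on the opposite strand, and the use of strand in counting is not given in the sources used here. With DAP3, 7 of 83 genes for mitochondrial ribosomal proteins (8.43%) were listed, 6 lower and 1 higher. Of 80 genes for cytosolic ribosomal proteins 3 (3.75%) were listed, all lower, and of 8 paralogs of these none was. For scale, 9.46% of protein-coding genes in GENCODE release 29 were listed, a figure that includes genes not expressed or not tested. The remaining 77 cytosolic and 76 mitochondrial genes were not analysed here, so the values describe single genes and not either ribosome as a whole.

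**Figure D2:**
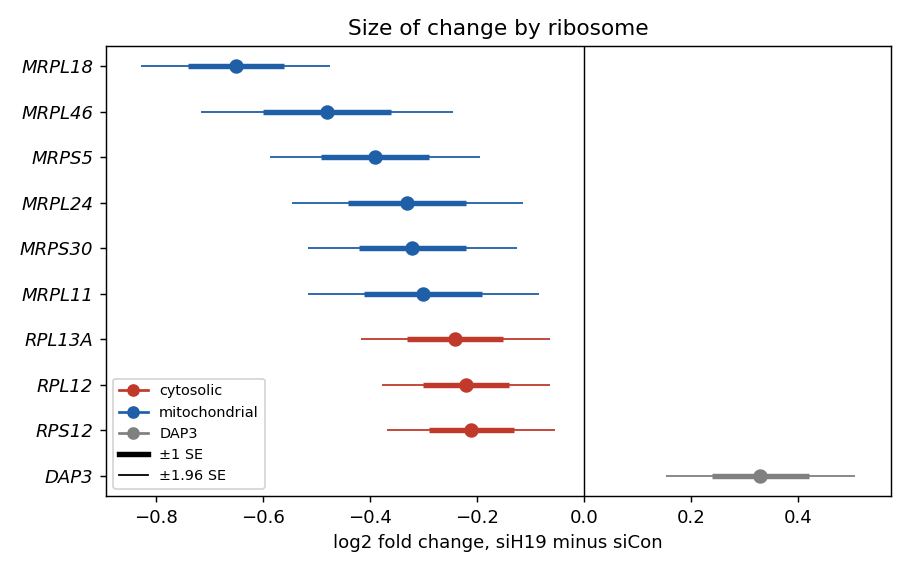
Log2 fold change (siH19 minus siCon) of each gene in the authors' deposited table, with thick bars for 1 SE and thin bars for 1.96 SE, cytosolic genes in red, mitochondrial genes in blue and DAP3 in grey. The 6 mitochondrial genes all fell by more than the 3 cytosolic genes, and among these 9 the thin bars of MRPL18 alone lie wholly apart from those of the cytosolic genes.

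Between the 2 ribosomes, the median log2 fold change was -0.22 over the 3 cytosolic and -0.36 over the 6 mitochondrial genes, against -0.44 over all listed genes that were lower. All 6 mitochondrial falls were larger than all 3 cytosolic falls, but the gap between the nearest of them, MRPL11 and RPL13A, was 0.06 on the log2 scale, less than the SE of either in the authors' deposited table. Intervals of 1.96 SE around each fold change overlapped in 15 of 18 pairs of a cytosolic and a mitochondrial gene. The 3 pairs that did not overlap all involved MRPL18, whose interval ran from -0.83 to -0.47, while the lowest bound among the cytosolic genes was -0.42 for RPL13A. The intervals rest on the fold changes that chose the genes, and the pairs reuse the same genes. The share of overlaps among other listed genes is not given here, so nothing is read from these counts. The difference itself was not tested, as the members were selected on their fold changes and no value per library was used.

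The cytosolic genes also differed from the mitochondrial genes in level. Mean normalized counts in the authors' deposited table ran from 2528 for RPL13A to 8052 for RPL12 in the cytosolic group and from 450.3 for MRPL46 to 1763 for MRPS5 in the mitochondrial group. Median SEs were 0.08 and 0.105. The smallest size listed for a lower gene was 0.20 among the 150 within the cytosolic range of counts and 0.22 among the 431 within the mitochondrial range. The median sizes of those lower genes were 0.34 and 0.39. The cytosolic median of 0.22 was thus below the 0.34 of listed genes of like level, and the mitochondrial median of 0.36 was close to their 0.39. The part of level in the difference between the ribosomes was not tested. Within the cytosolic range of counts 69.1% of the 217 listed genes were lower, and within the mitochondrial range 55.5% of 777.

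**Figure D3:**
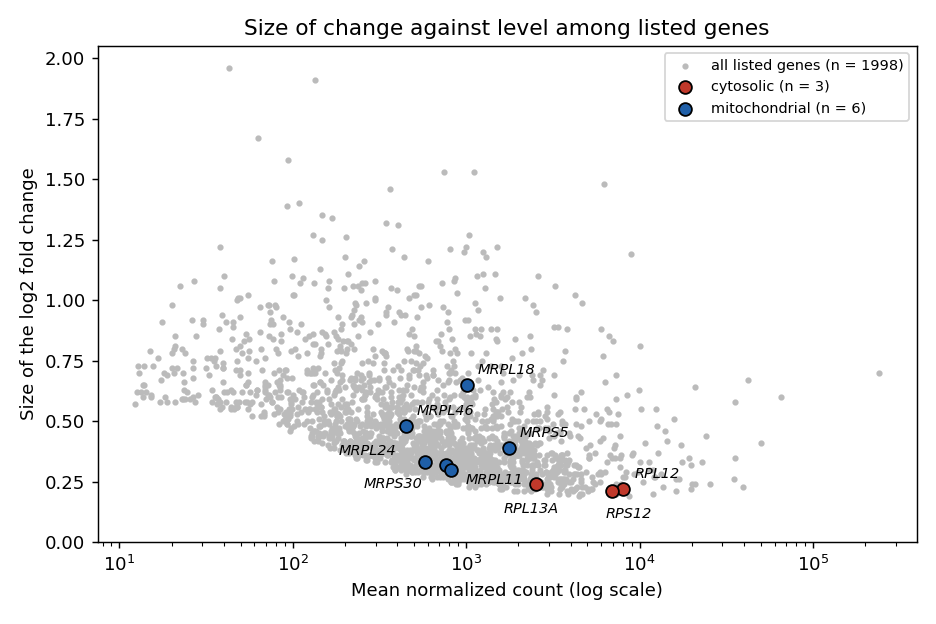
Size of the log2 fold change against mean normalized count (log axis) for all 1998 genes of the authors' deposited table in grey, with cytosolic members in red and mitochondrial members in blue. The 3 cytosolic genes sit along the lower edge of the listed genes, and MRPL18 and MRPL46 sit above the other 4 mitochondrial genes.

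If the normalized counts were near the reads behind them, which is not known, counting error alone in 3 libraries a group would give an SE of 0.01 to 0.02 for the cytosolic and 0.03 to 0.06 for the mitochondrial genes on the log2 scale. The SEs of the authors' deposited table were 0.08 to 0.12. Per kilobase of principal transcript in GENCODE release 29, the mean normalized count was 12720 for RPL12, 11028 for RPS12 and 2141 for RPL13A, and from 442 for MRPL46 to 1067 for MRPS5 among the mitochondrial genes. The cytosolic values may be affected by processed copies of these genes, which was not tested. GENCODE release 29 names 50 pseudogenes after RPL12, 15 after RPS12 and 10 after RPL13A, against 2 after MRPS5 and none after the other 5 mitochondrial genes. How reads that map to several places were treated is not given in the sources used here. Beside these copies, the cytosolic genes also host small nucleolar RNAs in GENCODE release 29, 4 in RPL13A, 3 in RPS12 and 1 in RPL12, whose reads a total RNA library can hold.

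The listed genes that serve the mitochondrial ribosome did not share 1 direction. Of 74 genes for mitochondrial translation factors, ribosome assembly and mitochondrial RNA synthesis 7 were listed, 3 higher and 4 lower. That is 9.46% of them, against 9.46% of protein-coding genes, and 55.3% of all listed genes were lower. Nothing is therefore read from this count or its split. Both listed translation factors were lower in the authors' deposited table, MTIF2, the initiation factor that brings the first tRNA, at -0.27 ± 0.09 and MTO1, a tRNA modification enzyme, at -0.30 ± 0.11 on the log2 fold change scale. Both listed assembly genes were higher in the authors' deposited table, MTERF3 at 0.40 ± 0.15 and FASTKD2 at 0.27 ± 0.09. Of the 3 listed genes of mitochondrial RNA synthesis and processing, FASTK (-0.45 ± 0.14) and the helicase SUPV3L1 (-0.40 ± 0.11) had the largest changes in the authors' deposited table. The third, TFAM, which packages mitochondrial DNA and starts its transcription, was higher at 0.31 ± 0.09 in the authors' deposited table, and was named after its value was seen.

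The proteins that mitochondrial ribosomes make work in the respiratory chain beside nuclear-coded proteins. Of 37 complex I genes 2 were listed (5.41%, against 9.46% of protein-coding genes), both lower in the authors' deposited table, NDUFA3 (-0.34 ± 0.13) and NDUFS1 (-0.28 ± 0.08). Of 41 genes for complexes II to V 1 was listed (2.44%), the ATP synthase inhibitor ATPIF1, at a log2 fold change of -0.38 ± 0.09 in the authors' deposited table. Of the 15 mitochondrially coded mRNAs and rRNAs 0 were listed, and their levels were not analysed here. Of 16 transcription factors linked to mitochondrial biogenesis 1 was listed (6.25%). It was PPARA, a regulator of fatty acid oxidation, at -0.59 ± 0.10 in the authors' deposited table.

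**Figure D4:**
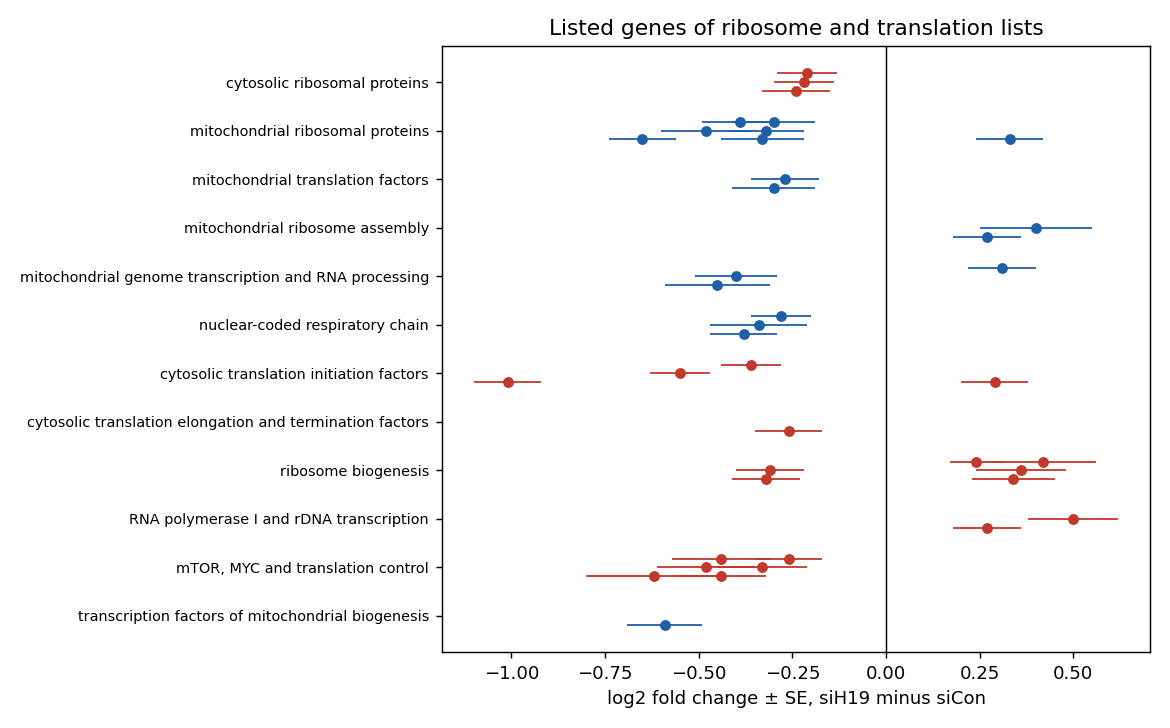
Log2 fold change (siH19 minus siCon) ± SE from the authors' deposited table for each listed gene of the ribosome and translation lists, mitochondrial lists in blue and cytosolic lists in red. The 3 cytosolic ribosomal proteins lie nearest to 0 on the lower side, DAP3 is the 1 mitochondrial ribosomal protein on the higher side, and the 2 assembly and 2 polymerase I genes are all higher.

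On the cytosolic side, genes that make ribosomes and genes that act with them were listed in both directions. Of 124 ribosome biogenesis genes 6 were listed (4.84%, against 9.46% of protein-coding genes), 4 higher and 2 lower. PWP2 (0.42 ± 0.14) and RRP12 (0.36 ± 0.12), both factors of rRNA processing, changed most in the authors' deposited table. The 2 lower genes, named after their values were seen, were NMD3, an export adaptor of the large subunit (-0.32 ± 0.09), and NOL7 (-0.31 ± 0.09) in the authors' deposited table. Of 21 genes of RNA polymerase I transcription 2 were listed (9.52%). Both were higher in the authors' deposited table, the terminator protein TTF1 (0.50 ± 0.12) and the largest polymerase I subunit, POLR1A (0.27 ± 0.09). Of 44 initiation factors 4 were listed (9.09%), 3 lower and 1 higher, where 55.3% of all listed genes were lower. The shares of initiation factors and polymerase I genes were thus close to that of protein-coding genes, and nothing is read from them. The share of protein-coding genes includes genes not expressed or not tested. EIF2S1, the subunit of eIF2 whose phosphorylation slows initiation (-1.01 ± 0.09), and EIF4G2, which supports cap-independent initiation (-0.55 ± 0.08), changed most in the authors' deposited table. The 1 listed gene of 15 for elongation and termination (6.67%) was EEF2K, at -0.26 ± 0.09 in the authors' deposited table. It is the kinase that inhibits elongation factor eEF2.

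Of 37 genes of mTOR and MYC signalling and of translation control of ribosomal protein mRNAs, 6 were listed (16.2%, against 9.46% of protein-coding genes), all lower, against 55.3% of listed genes. Their median log2 fold change of -0.44 equals that of all listed genes that were lower. The 9.46% includes genes not expressed or not tested, and the list was chosen with earlier results known. Nothing is therefore read from the count or the shared direction of the 6. SESN3, an inhibitor of mTORC1 signalling (-0.62 ± 0.18), and EIF4EBP2, a repressor of cap-dependent initiation (-0.48 ± 0.13), changed most in the authors' deposited table. The other 4, named after their values were seen, were RPS6KB2, an S6 kinase (-0.44 ± 0.12), RRAGA, a GTPase that recruits mTORC1 to lysosomes (-0.44 ± 0.13), MXD4, a MYC antagonist (-0.33 ± 0.12), and RHEB, the GTPase that activates mTORC1 (-0.26 ± 0.09), in the authors' deposited table. The 6 therefore include activators and inhibitors of the pathway.

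Several members share a start region with a gene on the other strand, and none of those partners was listed. MRPL46 starts 34 bases from MRPS11, another mitochondrial ribosomal protein gene, by the gene starts of GENCODE release 29. MRPL18 starts 63 bases from TCP1, a chaperonin subunit, and RPL12 starts 81 bases from LRSAM1. MRPS30 starts 148 bases from the antisense transcript MRPS30-DT, and MRPL11 starts 411 bases from PELI3, which overlaps it on the opposite strand.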

How the data were processed

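Total RNA of 6 HepG2 libraries (3 siCon, 3 siH19) was depleted of rRNA and sequenced with a stranded kit as paired reads of 76 cycles, per the labels' protocols. The submitters' processing notes name STAR 2.5.0a, Cufflinks 2.2.1, DESeq2 1.0.0 and hg19, with no role or order. The authors deposited 1 table of called genes. Per the file headers it holds the log2 count of each group, a mean count (a normalized signal, deposited by the authors), the log2 fold change with its SE, and a q value (adjusted p-value) deposited by the authors, at most 0.0498. It held 0 columns of samples from other series.

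No test was added. Members were taken by symbol, and medians, counts, 1.96 SE intervals (95%) and motif matches were computed in Python 3.11.15 with pandas 2.3.3. The motif search was tested on simulated data, with CCGGAAG and the TOP start placed in random sequences of A and T. Such sequences cannot hold a false CCGGAAG match, and AAGATGG and CGCATGC were not tested in this way. The design had allowed for counts per library, which the file does not give. The members and the 22 gene lists (633 symbols) were chosen with earlier results of these data known, and 1 further list is not reported here. Genes named are the members, DAP3, the 2 largest changes in each list with 3 or more listed genes, all listed genes of smaller lists, and others said to be chosen after their values were seen. Of the 1998 symbols 1921 matched GENCODE release 29, directly or by an older symbol. The alternatives were a stricter adjusted p, a mean count minimum, wider names, no overlapping genes, weighted means and leaving out single members.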

Additional observations from a re-analysis of the deposited data

How the results depend on the processing

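Of 39 alternative values, 36 kept their direction and lay within the median SE of the members (or, for counts, within 1.5 times), and 3 did not. At an adjusted p of at most 0.01 the mitochondrial genes left were 3, MRPL18, MRPL46 and MRPS5, all lower, with a median log2 fold change of -0.48 and a median size of 0.48, and no cytosolic gene was left, so that setting gives no difference between the ribosomes. The difference of the medians, 0.14 on the log2 scale, ran from 0.11 with DAP3 added or 1 gene left out to 0.20 with means weighted by the SEs. A mean count minimum of 100 and the removal of genes overlapping another listed gene took out no member. The values of these settings therefore repeat the main ones. Every member was lower, so leaving members out could not change a direction. Each median size also repeats a median log2 fold change, so the count of 36 is no measure of robustness. Leaving out replicates was not run, since the table has 1 value per group. No paired analysis was possible because the columns carry no replicate numbers. Depth per library is unknown, so what it limits here was not computed.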

Other observations

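With ribosomal proteins set aside, the TOP start was about as frequent among listed genes of both directions as among protein-coding genes. It was found in 54 of 822 lower genes (6.57%) and 47 of 695 higher genes (6.76%) with a RefSeq promoter entry, against 6.24% of protein-coding genes. AAGATGG downstream of the start on the gene's strand was found in 28 of the same 822 lower genes (3.41%) and 20 of the 695 higher genes (2.88%), against 26.4% of 72 mitochondrial ribosomal protein genes and 3.04% of protein-coding genes. These shares are descriptions of annotated starts and were not tested.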
